A study of Mus musculus with 4 samples.

Results

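Wnt pathway genes were followed here across the binding sites of phosphorylated Smad proteins in the early mouse molar. The 47 members were listed by gene name, and the list was chosen with earlier results of these data known. They comprised 19 Wnt ligands, 10 Frizzled receptors, 6 co-receptors and transducers, 9 inhibitors and 3 TCF transcription factors. On the genome 21519 protein-coding genes were placed. The material was the molar tooth germ of wild-type CD1 mouse embryos at E13.5, and every library came from this tissue and genotype with no further treatment. CUT&RUN, in which an antibody tethers a nuclease to chromatin so that bound fragments are released and sequenced, was done with an antibody against pSmad1/5 (Cell Signaling Technology) in 2 libraries and one against pSmad3 (Abcam) in 2 libraries. The labels do not say whether the libraries of an antibody came from separate litters. The deposited data are 1 list of peaks per antibody, common to its 2 libraries, with 10741 pSmad1/5 and 7905 pSmad3 peaks. No value per library and no read depth was available to this work, so there is no replicate error. Counts are therefore described beside the same counts over all protein-coding genes, without a test. The germs were dissociated into cells and no sorting is named, so a peak cannot be assigned to the dental epithelium or the mesenchyme.

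Wnt ligands are secreted lipid-modified proteins that bind a Frizzled receptor together with the co-receptor Lrp5 or Lrp6. This stops the destruction complex of Axin, Apc and kinases from degrading beta-catenin, the product of Ctnnb1, which then acts with TCF/LEF factors on target genes. In the tooth, Wnt signals pass between epithelium and mesenchyme alongside BMP signals, whose receptors phosphorylate Smad1/5, and TGF-beta or activin signals, whose receptors phosphorylate Smad3.

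A member was said to have a peak if a deposited peak touched its gene body or the 10 kb on either side, called the locus. A pSmad3 peak lay in the locus of 21 of the 47 members (44.7%, exact 95% Clopper-Pearson interval 30.2 to 59.9), where 24.4% of all protein-coding genes had one. A pSmad1/5 peak lay in the locus of 16 members (34.0%, interval 20.9 to 49.3), where the share over all protein-coding genes was 27.3%. Longer genes catch more peaks, so each member was also set beside the protein-coding genes of its own locus length, in 20 classes. In those classes the average share was 26.4% for pSmad3 and 29.2% for pSmad1/5, which would correspond to 12.4 and 13.7 members. Both antibodies had a peak at 12 members (25.5%, against 14.1% of all protein-coding genes and 15.3% by locus length). A peak of pSmad3 alone lay at 9 (10.3% of all, 11.1% by locus length) and of pSmad1/5 alone at 4 (13.2% of all, 13.9% by locus length). The remaining 22 members (46.8%, against 62.4% of all and 59.7% by locus length) had no peak. Several peaks in 1 locus were counted too. At least 2 pSmad3 peaks lay at 12 members (7.45% of all protein-coding genes) and at least 3 at 5 members, all ligands (2.6%). For pSmad1/5 these counts were 8 (10.5%) and 3 (4.13%). The shares for several peaks were not matched for locus length. At Kremen1, Nkd1, Wnt9a and Wnt9b all pSmad1/5 peaks were parts of 1 call. Here alone means that the other list held no peak in that locus, and a missing peak means no deposited call. These intervals cover counting error only and treat neighbouring genes as separate.

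The classes differed in their counts. Ligands had a pSmad3 peak at 11 of 19 genes (57.9%, 25.8% over genes of the same locus length) and a pSmad1/5 peak at 8 (42.1%, 28.6%). Frizzled receptors had 1 of 10 for each antibody, where genes of their locus length had a peak in 26.0% (pSmad1/5) and 23.6% (pSmad3) of cases. The 6 co-receptors and transducers had a pSmad1/5 peak at 1 gene (16.7%, 32.6% by locus length) and a pSmad3 peak at 2 (33.3%, 29.4%). Inhibitors had pSmad1/5 at 5 of 9 (55.6%, 28.9%) and pSmad3 at 4 (44.4%, 26.7%). The TCF factors had pSmad1/5 at 1 of 3 (33.3%, 37.6%) and pSmad3 at 3 of 3 (100%, 32.5%). Of these, Tcf7l1 and Tcf7l2 are long genes, at 162675 and 191863 bp, and Tcf7 is 36857 bp long. The intervals are wide, for example 33.5 to 79.7% for pSmad3 at the ligands and 0.253 to 44.5% at the Frizzled receptors, and no difference between classes was tested. Median gene length also differed, at 22906 bp for ligands, 4594 bp for Frizzled receptors and 162675 bp for TCF factors. Without the ligands, 10 of 28 members had a pSmad3 peak (35.7%, 26.8% by locus length) and 8 a pSmad1/5 peak (28.6%, 29.6%).

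**Figure D1:**
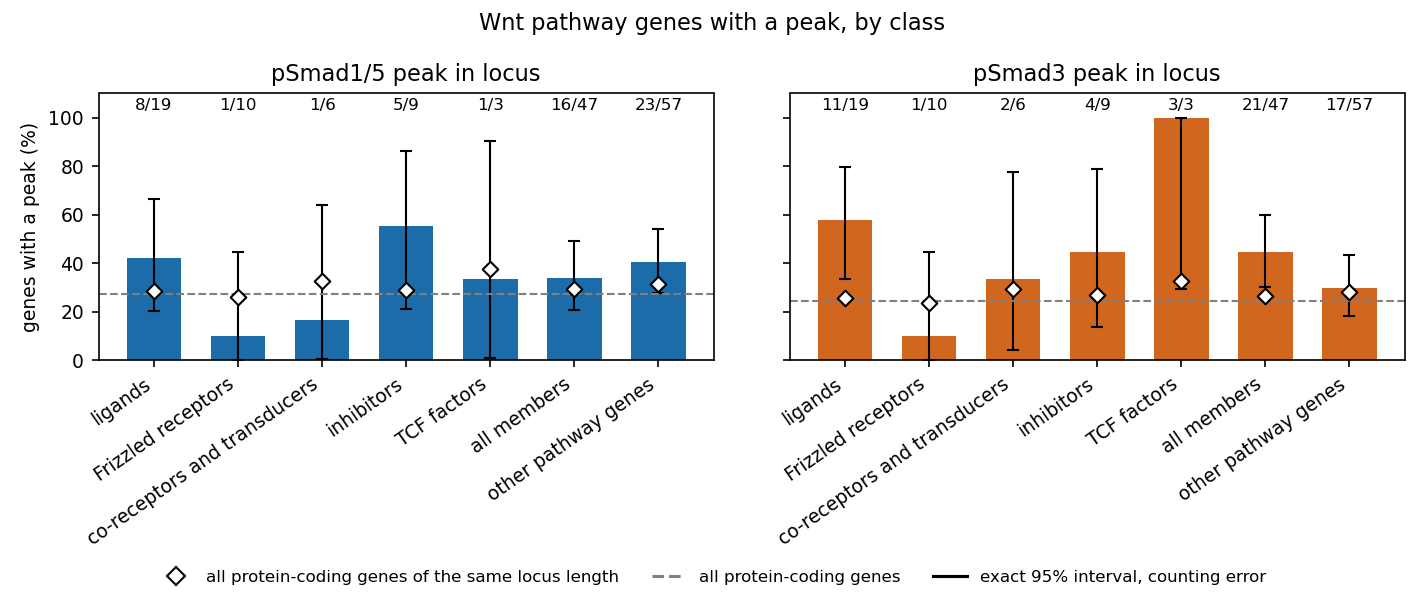
Share of genes with a pSmad1/5 (left) or pSmad3 (right) peak in the locus, in percent, for each class of Wnt pathway genes. Bars give the share and thin lines its exact 95% interval, diamonds the share among protein-coding genes of the same locus length and the dashed line that among all protein-coding genes. For pSmad3 the ligands reach 57.9% and the TCF factors 100%, while the Frizzled receptors are at 10% for each antibody.

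With only the stronger peaks of each list, those at or above its median total signal, 12 members kept a pSmad3 peak (14.1% of all protein-coding genes) and 9 a pSmad1/5 peak (14.4%). In that setting the ligands had 6 and 5 genes and the inhibitors 3 and 4, in each case pSmad3 first. The co-receptors and transducers, the TCF factors and the Frizzled receptors each had 1 and 0. Shares by class over genes of the same locus length were not worked out for this setting.

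Total and maximum signal are the authors' values for each peak, and are used here only to rank it within its own list. The 37 distinct pSmad3 peaks of the members had a median percentile of 39.9 by total signal (range 3.33 to 90.4), and the 25 pSmad1/5 peaks a median of 66.2 (4.69 to 91.3). Over all peaks in protein-coding loci the medians were 49.8 and 50.5. The maximum signal ran from 9 to 19 for pSmad3 and from 13 to 19 for pSmad1/5, with medians of 13 and 16 that equal those of the whole lists. No member peak had a maximum over 2 times its list median. A peak can be a piece of a longer call, in which case pieces share 1 signal. The 25 pSmad1/5 peaks came from 20 calls and the 37 pSmad3 peaks from 36. With each call counted once, the median percentile of the members was 51.9 for pSmad1/5 and 38.1 for pSmad3, against 44.2 and 48.8 over the calls in all protein-coding loci. The higher pSmad1/5 median of 66.2 thus rests on pieces of the calls at Kremen1, Nkd1 and Wnt3 that are counted more than once. The call at Wnt9a, also in 2 pieces, is at percentile 49.6 and does not raise it. The region of the maximum lay wholly inside the peak for 7 of the 25 pSmad1/5 peaks (28%, against 27.1% of the whole list). For pSmad3 it did so for 23 of the 37 (62.2%, against 70.0%).

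**Figure D2:**
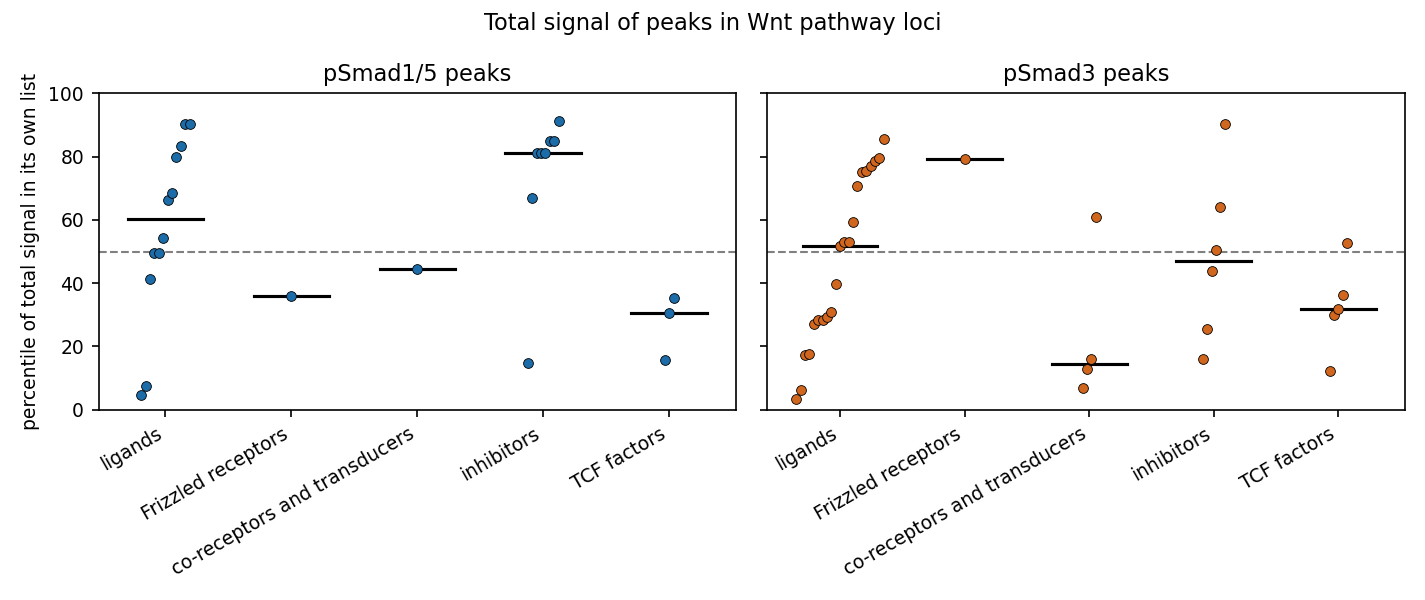
Percentile of total signal within its own list (y axis) for each distinct peak in a Wnt pathway locus, by class, pSmad1/5 left and pSmad3 right. Points are peaks, short lines class medians and the dashed line the middle of the list. The pSmad1/5 peaks of the inhibitors have a median of 81.3 (5 of the 8 are pieces of 2 calls), and the pSmad3 peaks of the co-receptors and transducers a median of 14.5.

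Peaks lay mostly inside the genes. Of 39 pairs of a member and a pSmad3 peak, 26 were inside the gene (66.7%, 46.9% over all protein-coding genes), 3 over a gene boundary (7.69%, 19.5%) and 10 outside (25.6%, 33.7%). Of 27 pSmad1/5 pairs, 18 were inside (66.7%, 51.1%), 2 over a boundary (7.41%, 12.5%) and 7 outside (25.9%, 36.4%). These shares were not matched for gene length, whose median was 29098 bp for the members and 17375 bp over all protein-coding genes. In 5 pSmad3 and 2 pSmad1/5 pairs another protein-coding gene was nearer to the peak than the member.

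Peaks at a transcription start were found at a minority of members. RefSeq starts were listed for 31 members. A pSmad1/5 peak covered a start at Sfrp2 and Wnt5b, 2 of the 31, where 3.4% of protein-coding genes with a listed start had one. A pSmad3 peak covered the start of Wnt10b alone (4.16%). Within 1 kb of a start there were 3 members for each antibody (5.16% of all for pSmad1/5 and 5.4% for pSmad3): Sfrp2, Wnt5b and Nkd1 for pSmad1/5, and Wnt10b, Wnt9a and Wnt1 for pSmad3.

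For members without a listed start, no upstream sequence was available. The 250 bases upstream are shown for the 5 listed starts with a peak touching the window from 250 bases before to 50 after the start. They are from RefSeq on GRCm38.p6, the assembly also called mm10, and read 5′ to 3′ toward the start. Capitals mark matches on either strand to CAGAC (the short box read by Smad3 and Smad4), GGCGCC or GGAGCC (GC-rich elements bound by Smad1/5) or CTTTGAT (a TCF/LEF motif). The Smad palindrome GTCTAGAC and the TCF/LEF form CTTTGTT were also searched and had no match in these 5 windows. GTCTAGAC and GGCGCC read the same on both strands, and no motif contains another. A match is a run of letters, not a bound site.

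Wnt9a, chr11:59306680-59306929, plus strand: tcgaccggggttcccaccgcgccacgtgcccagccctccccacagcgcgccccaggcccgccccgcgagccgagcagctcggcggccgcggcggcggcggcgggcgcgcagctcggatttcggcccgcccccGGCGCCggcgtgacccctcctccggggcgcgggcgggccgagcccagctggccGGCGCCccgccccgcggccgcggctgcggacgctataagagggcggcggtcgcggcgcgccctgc
Nkd1, chr8:88527383-88527632, plus strand: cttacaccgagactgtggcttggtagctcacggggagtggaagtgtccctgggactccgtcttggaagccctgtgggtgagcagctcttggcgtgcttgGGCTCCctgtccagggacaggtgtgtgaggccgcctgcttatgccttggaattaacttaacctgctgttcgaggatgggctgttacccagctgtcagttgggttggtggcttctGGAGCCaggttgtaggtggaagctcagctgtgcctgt
Sfrp2, chr3:83766071-83766320, plus strand: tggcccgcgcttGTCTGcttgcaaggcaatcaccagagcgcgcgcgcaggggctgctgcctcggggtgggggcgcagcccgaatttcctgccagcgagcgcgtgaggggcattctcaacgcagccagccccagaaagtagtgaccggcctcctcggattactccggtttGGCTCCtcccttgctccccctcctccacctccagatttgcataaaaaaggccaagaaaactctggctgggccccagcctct
Wnt5b, chr6:119449387-119449636, minus strand: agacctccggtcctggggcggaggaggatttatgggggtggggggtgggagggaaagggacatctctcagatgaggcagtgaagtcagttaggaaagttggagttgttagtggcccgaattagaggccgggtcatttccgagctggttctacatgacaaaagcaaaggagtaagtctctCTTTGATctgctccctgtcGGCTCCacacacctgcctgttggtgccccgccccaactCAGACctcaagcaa
Wnt10b, chr15:98778151-98778400, minus strand: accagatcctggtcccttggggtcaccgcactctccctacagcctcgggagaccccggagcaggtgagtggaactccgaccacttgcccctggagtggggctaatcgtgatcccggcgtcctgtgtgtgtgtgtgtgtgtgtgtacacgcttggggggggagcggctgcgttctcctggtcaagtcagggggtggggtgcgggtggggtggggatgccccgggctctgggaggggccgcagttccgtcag

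The windows differ in what they hold and in how far the peak covers them. The pSmad1/5 peaks of Sfrp2 and Wnt5b and the pSmad3 peak of Wnt10b cover all 250 bases, and the pSmad1/5 piece at Nkd1 covers 58 of them. The pSmad3 peak of Wnt9a begins 14 bp beyond the start, inside the gene, and covers none of the bases shown. For Wnt9a, Nkd1 and Wnt5b the region of maximum of the call lay outside the peak, at -3568, 17991 and -3106 bp from the start (negative is upstream). Wnt9a has 2 matches to GGCGCC, which 12.4% of the 250-base windows upstream of protein-coding starts hold at least once, and 84.4% of its window is G or C. Nkd1 has 2 matches to GGAGCC (29.6% of windows), and Sfrp2 has 1 to it and 1 to CAGAC (40.6%). Wnt5b has 1 match each to CTTTGAT (2.85%), GGAGCC and CAGAC, and Wnt10b has no match to any of the 6.

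Among the ligands, those with peaks of both antibodies were Wnt3, Wnt3a, Wnt5b, Wnt7b, Wnt9a, Wnt9b and Wnt11. Wnt1, Wnt4, Wnt7a and Wnt10b had pSmad3 alone, and Wnt2b had pSmad1/5 alone. Wnt2, Wnt5a, Wnt6, Wnt8a, Wnt8b, Wnt10a and Wnt16 had neither. Of these, Wnt5a is known for its expression in the dental mesenchyme and for signalling without beta-catenin, and Wnt6 and Wnt10a are known epithelial ligands of the tooth.

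**Figure D3:**
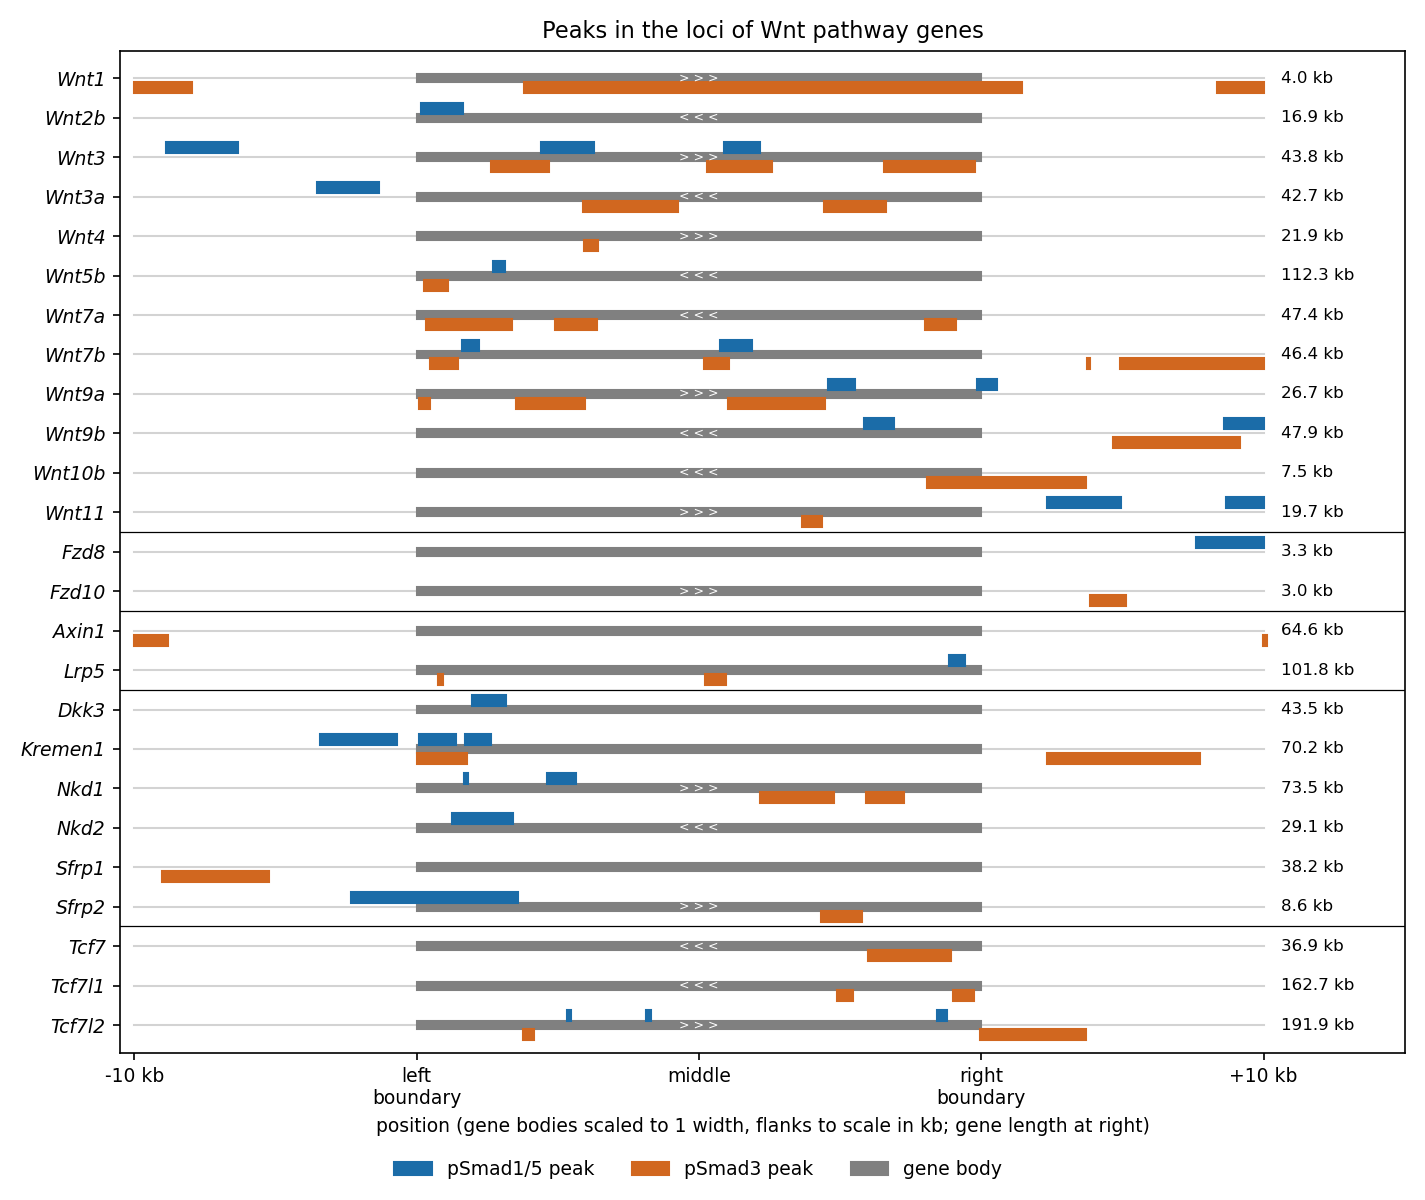
Peaks at the 25 Wnt pathway genes with at least 1 peak, pSmad1/5 above and pSmad3 below each gene, with the genes ordered by class and drawn in genome orientation. Gene bodies (grey) are scaled to 1 width and the 10 kb flanks are to scale. Arrowheads give the strand where RefSeq starts were listed. At 26 of 39 pSmad3 and 18 of 27 pSmad1/5 pairs of gene and peak, the peak lies inside the gene body.

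Several ligand genes are neighbours in the mouse genome, so some loci share peaks. The loci of 8 ligands overlapped in 4 pairs, which left 15 separate ligand loci, of which 8 had a pSmad3 and 6 a pSmad1/5 peak. Wnt3 and Wnt9b share an end on chromosome 11, Wnt3a and Wnt9a lie side by side on the same chromosome, Wnt1 and Wnt10b on chromosome 15, and Wnt6 and Wnt10a on chromosome 1. The 4 genes on chromosome 11 had peaks of both antibodies, Wnt1 and Wnt10b had pSmad3 peaks alone, and Wnt6 and Wnt10a had none.

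At the Wnt3 and Wnt9b locus, pSmad1/5 calls reached high total signal. Wnt3 (chromosome 11, 103774175 to 103818021) encodes an early Wnt ligand of the oral epithelium. It had 3 pSmad1/5 peaks, and 2 of them, chr11:103765289-103767863 and chr11:103783857-103787957, are pieces of 1 call at the 90.3 percentile of its list (maximum 19). The region of maximum of that call lies between the pieces, 226 bp inside Wnt3 from its start. The other pSmad1/5 peak, chr11:103798021-103800843 (percentile 83.3), lies entirely within a pSmad3 peak, chr11:103796725-103801762, whose own total is low in its list (percentile 6.16). The region of maximum of this pSmad1/5 call, chr11:103809467-103809478, lies outside both peaks. Its percentile is therefore not that of the shared stretch alone. A further pSmad3 peak, chr11:103779951-103784431, overlaps the second pSmad1/5 piece by 575 bp. The last, chr11:103810467-103817548, has the highest maximum of the members' pSmad3 peaks, 19, at percentile 77.1 by total signal. Wnt9b takes part in this locus through the first pSmad1/5 piece, which lies in its listed body but 15468 bp upstream of its listed start, and through 2 flanking peaks that are nearer to Wnt3.

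At Wnt3a and Wnt9a no peaks of the antibodies overlapped. Wnt3a, a ligand often used to activate beta-catenin signalling, had 2 pSmad3 peaks inside the gene, chr11:59260651-59267838 (percentile 85.6, the highest of the ligands' pSmad3 peaks) and chr11:59278849-59283549 (70.7). Its pSmad1/5 peak, chr11:59244512-59246700 (79.8), was 1336 bp downstream of the gene. For this peak and the pSmad3 peak at 85.6 the region of maximum of the call lies outside the peak. Their percentiles are therefore not those of the printed stretches alone. Wnt9a had 3 pSmad3 peaks, at percentiles 39.9, 51.8 and 28.4 in order from its start, and 2 pSmad1/5 pieces of 1 call at 49.6. The last pSmad3 peak and the first pSmad1/5 piece of Wnt9a lie 122 bp apart. Of the protein-coding genes of the same locus length, 1.95% had as many as 3 pSmad3 peaks.

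Wnt1 and Wnt10b carried pSmad3 peaks only. Wnt1, whose gene is 3974 bp long, had 3 in its locus, and 1.02% of genes of its locus length had as many. One, chr15:98790616-98795256 (percentile 27.0), begins 759 bp inside the gene and runs over its far end, another, chr15:98802196-98809852 (78.6), is nearer to Ddn than to Wnt1, and the other is the peak over the start of Wnt10b. That peak, chr15:98777486-98781916, has a total near the bottom of its list (percentile 3.33) and a maximum of 11 against the list median of 13. Wnt10b is a ligand known from the dental placode and the enamel knot. The nearest pSmad1/5 peaks were 37.2 kb from Wnt10b and 51.05 kb from Wnt1.

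**Figure D4:**
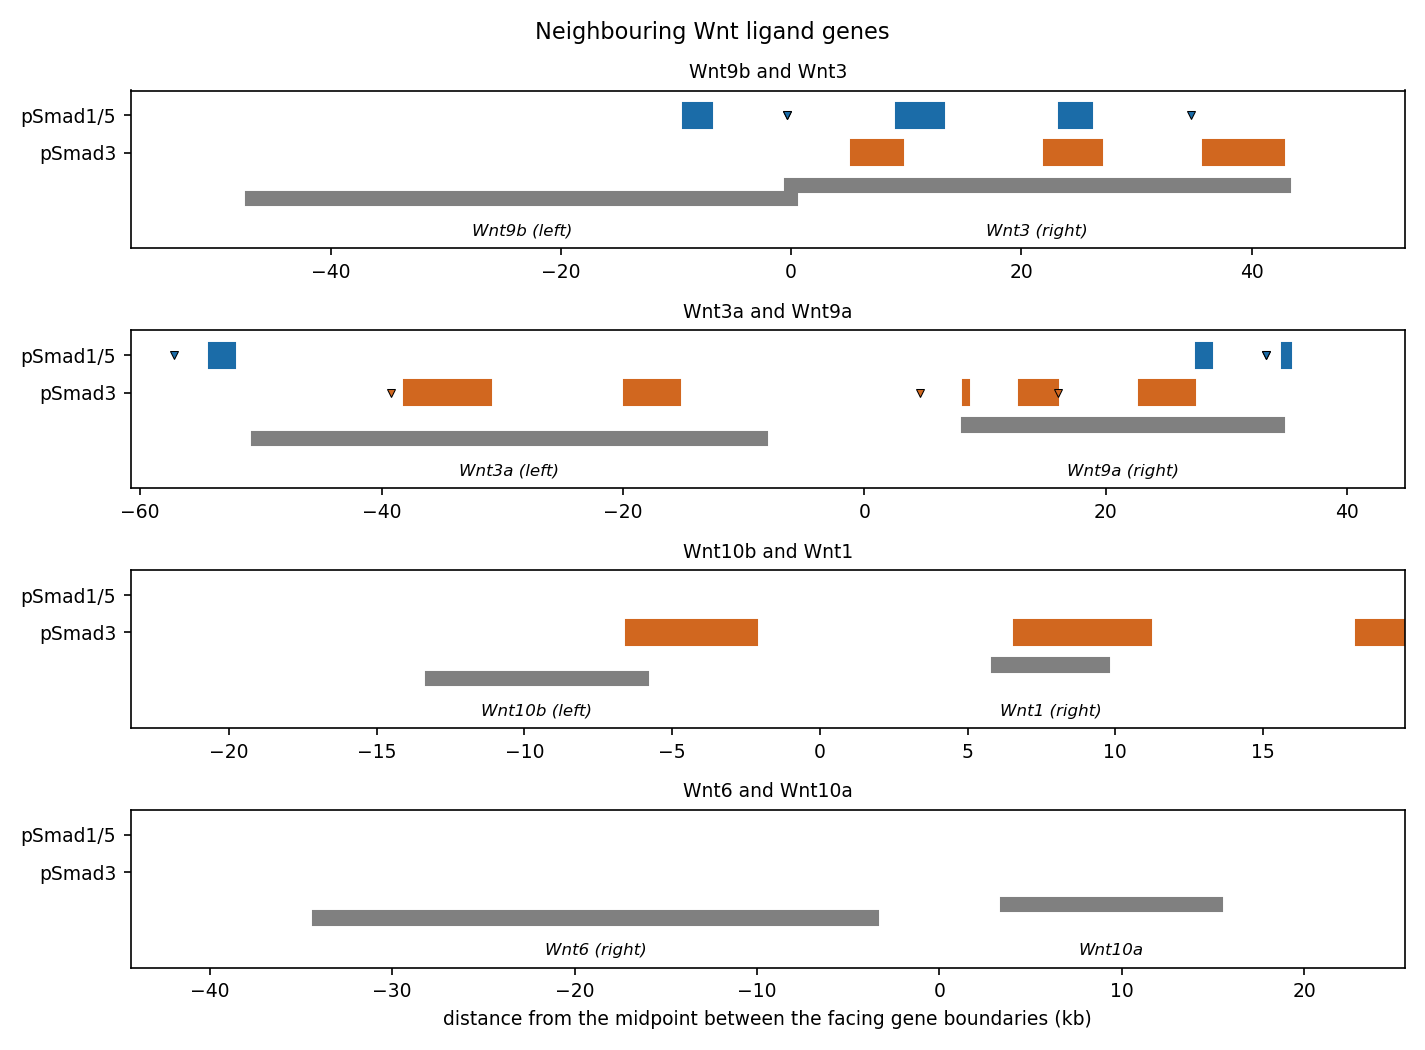
Peaks around 4 neighbouring pairs of Wnt ligand genes, by distance in kb from the midpoint between their facing boundaries, each panel ending 10 kb beyond the genes. Grey bars are gene bodies with the direction of transcription where listed, coloured bars peaks, and small triangles the region of maximum signal of a call where it is not wholly inside the peak. Both antibodies have peaks at the 2 upper pairs, pSmad3 alone at Wnt10b and Wnt1, and neither at Wnt6 and Wnt10a.

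Wnt7b and Wnt7a, closely related ligands, differed in their calls. Wnt7b, a ligand known from the oral epithelium outside the tooth, had 4 pSmad3 peaks from 3 calls, and 0.836% of genes of its locus length had as many. Their percentiles were 79.7 and 59.3 inside the gene and 53.1 for the 2 pieces outside it. It also had 2 pSmad1/5 peaks (66.2 and 68.5), of which 1 overlapped a pSmad3 peak by 723 bp and the other ended 347 bp from one. None of the Wnt7b peaks wholly held the region of maximum of its call. Wnt7a had 3 pSmad3 peaks inside the gene (75.2, 28.3 and 75.5) and no pSmad1/5 peak, the nearest being 15.3 kb from the gene. The pSmad3 peak of Wnt7a closest to its start, chr6:91406604-91409220, ends 2133 bp from it.

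The other ligands had 1 to 3 peaks each. Wnt11, which acts mainly without beta-catenin, had a pSmad3 peak inside the gene (percentile 17.7, maximum 16) and 2 pSmad1/5 peaks 2323 and 8680 bp downstream (4.69 and 54.2). The farther of these ends 226 bp from a pSmad3 peak that lies just beyond the Wnt11 locus. Wnt5b, related to Wnt5a, had the pSmad1/5 peak over its internal start, chr6:119447686-119450025 (7.48), and a pSmad3 peak inside the gene (17.3). Wnt4, an epithelial ligand, had 1 short pSmad3 peak of 533 bp inside the gene (29.3). Wnt2b had 1 pSmad1/5 peak (41.5), which also lies in the neighbouring gene St7l.

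Frizzled receptors, the seven-pass membrane receptors of the ligands, had peaks at 2 of 10 genes, both outside the gene. Fzd10 had a pSmad3 peak, chr5:128607950-128609227, 3857 bp downstream of the gene (percentile 79.4). The region of maximum of that call, chr5:128600325-128600486, is outside the deposited peak and just upstream of the Fzd10 start at 128601106. At Fzd8 a pSmad1/5 peak lay 7593 bp from the gene (36.1), and Fzd1, Fzd2, Fzd3, Fzd4, Fzd5, Fzd6, Fzd7 and Fzd9 had none. For pSmad3 the nearest peak was over 1 Mb away for Fzd1 (1416.6 kb), Fzd5 (1818.8 kb) and Fzd7 (1154.3 kb).

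Of the co-receptors and transducers, Lrp5 and Axin1 had peaks. Lrp5, the low-density lipoprotein receptor family co-receptor, had 1 pSmad1/5 peak (chr19:3680819-3683641, percentile 44.5) and 2 pSmad3 peaks (7.02 and 12.9), all inside the gene, with no pair of the antibodies closer than 40.2 kb. Another pSmad3 peak, outside the locus, lay 30.9 kb from its pSmad1/5 peak. Axin1, the scaffold of the destruction complex, had 2 pSmad3 peaks near the edges of its locus, 8806 and 9994 bp from the gene, and both were nearer to another gene (Pgap6 and Rgs11). Lrp6, Apc, Ctnnb1 and Axin2, a feedback inhibitor and common readout of the pathway, had neither. Their nearest pSmad3 peaks were 80.3 kb (Lrp6), 21.8 kb (Apc), 20.4 kb (Ctnnb1) and 60.6 kb (Axin2) from the gene.

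The inhibitors included the strongest member peaks of both lists by total signal. Nkd1 and Nkd2 encode naked cuticle proteins, feedback inhibitors that bind Dishevelled. Nkd2 had a pSmad1/5 peak inside the gene, chr13:73820342-73823481, at percentile 91.3, and no pSmad3 peak. Nkd1 had 2 pSmad3 peaks, chr8:88566082-88575714 at 90.4 and chr8:88579884-88584883 at 25.5, and 2 pieces of a pSmad1/5 call at 84.8, the nearest 24.0 kb from a pSmad3 peak. One of those pieces is only 58 bp long and ends 9 bp before the Nkd1 start.

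Kremen1, a Dkk receptor that removes Lrp6 from the cell surface, had a pSmad1/5 call in 3 pieces at one end of the gene (percentile 81.3) and a pSmad3 peak over the same stretch, chr11:5191603-5197796 (64.1). The piece chr11:5191879-5196451 lies wholly within that pSmad3 peak. A second pSmad3 peak, 2328 bp beyond the other end (43.8), is also in the locus of Znrf3, which encodes a ligase that removes Frizzled receptors.

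Secreted inhibitors were divided. Sfrp2, a secreted Frizzled-related protein, had the pSmad1/5 peak over its start, chr3:83763426-83767288 (percentile 14.6), and a pSmad3 peak of 625 bp inside the gene (16.1). For Sfrp1 a pSmad3 peak lay 5216 bp from the gene (50.4), and Dkk3, a Dickkopf relative, a pSmad1/5 peak inside (66.8). Dkk1 and Dkk2, which block Lrp5 and Lrp6, and Sostdc1, an antagonist of both Wnt and BMP signals known to limit tooth number, had none. Dkk1 was the member farthest from any pSmad1/5 peak, at 1757.0 kb.

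All 3 TCF factors of the list had pSmad3 peaks, and 4 of these 5 peaks were below the middle of their list by total signal. Tcf7l1, often a repressor, had 2 (percentiles 30.1 and 36.4) with maxima of 9 and 10, where the lowest maximum in the pSmad3 list was 8. Tcf7 had 1 (31.8), 1166 bp from a start, and Tcf7l2 had 2 (52.7 and 12.4). Tcf7l2, at 191863 bp the longest member, also had 3 pSmad1/5 peaks inside the gene (15.6, 30.7 and 35.2). In its locus length class the share of genes with a peak was 46.4% for pSmad1/5 and 38.4% for pSmad3. Lef1, the remaining factor of this family, which was not on the member list and is named after its values were seen, had neither.

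Peaks of both antibodies in 1 locus were compared by position. Of the 12 members with both, Kremen1, Wnt3, Wnt7b and Wnt9b (4, or 33.3%) had a pair that overlapped by at least 1 bp, against 46.7% of the 3032 protein-coding genes with both. In the other 8 the closest pair within the locus lay 0.122 kb apart at Wnt9a, 4.59 kb at Sfrp2, 7.86 kb at Wnt11, 8.96 kb at Wnt5b, 11.2 kb at Tcf7l2, 13.95 kb at Wnt3a, 24.0 kb at Nkd1 and 40.2 kb at Lrp5. Their median gap was 10.1 kb, against 7.54 kb over all protein-coding genes with both antibodies and no overlap. Counted by peak, 5 of 25 pSmad1/5 peaks overlapped a pSmad3 peak (20%, interval 6.83 to 40.7) and 4 of 37 pSmad3 peaks a pSmad1/5 peak (10.8%, 3.03 to 25.4). The shares in all protein-coding loci were 20.3% and 22.3%. When at least 50% of the shorter peak had to overlap, 2 peaks of each list remained. The shares in all protein-coding loci under that rule were not worked out.

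For members with no peak in the locus, the distance to the nearest one was measured. The median was 79.1 kb for the 31 members without a pSmad1/5 peak (range 11.5 to 1757.0 kb) and 84.9 kb for the 26 without a pSmad3 peak (20.4 to 1818.8 kb). Over all protein-coding genes without such a peak the medians were 123.1 kb and 153.9 kb. Within 50 kb there was a pSmad1/5 peak for 10 of the 31 (32.3%, against 27.6% of all such genes) and a pSmad3 peak for 6 of the 26 (23.1%, against 23.8%). Wnt5a was 86.1 kb and 72.5 kb from the nearest pSmad1/5 and pSmad3 peak, Wnt10a 97.6 kb and 104.6 kb, and Wnt6 116.5 kb and 66.9 kb.

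**Figure D5:**
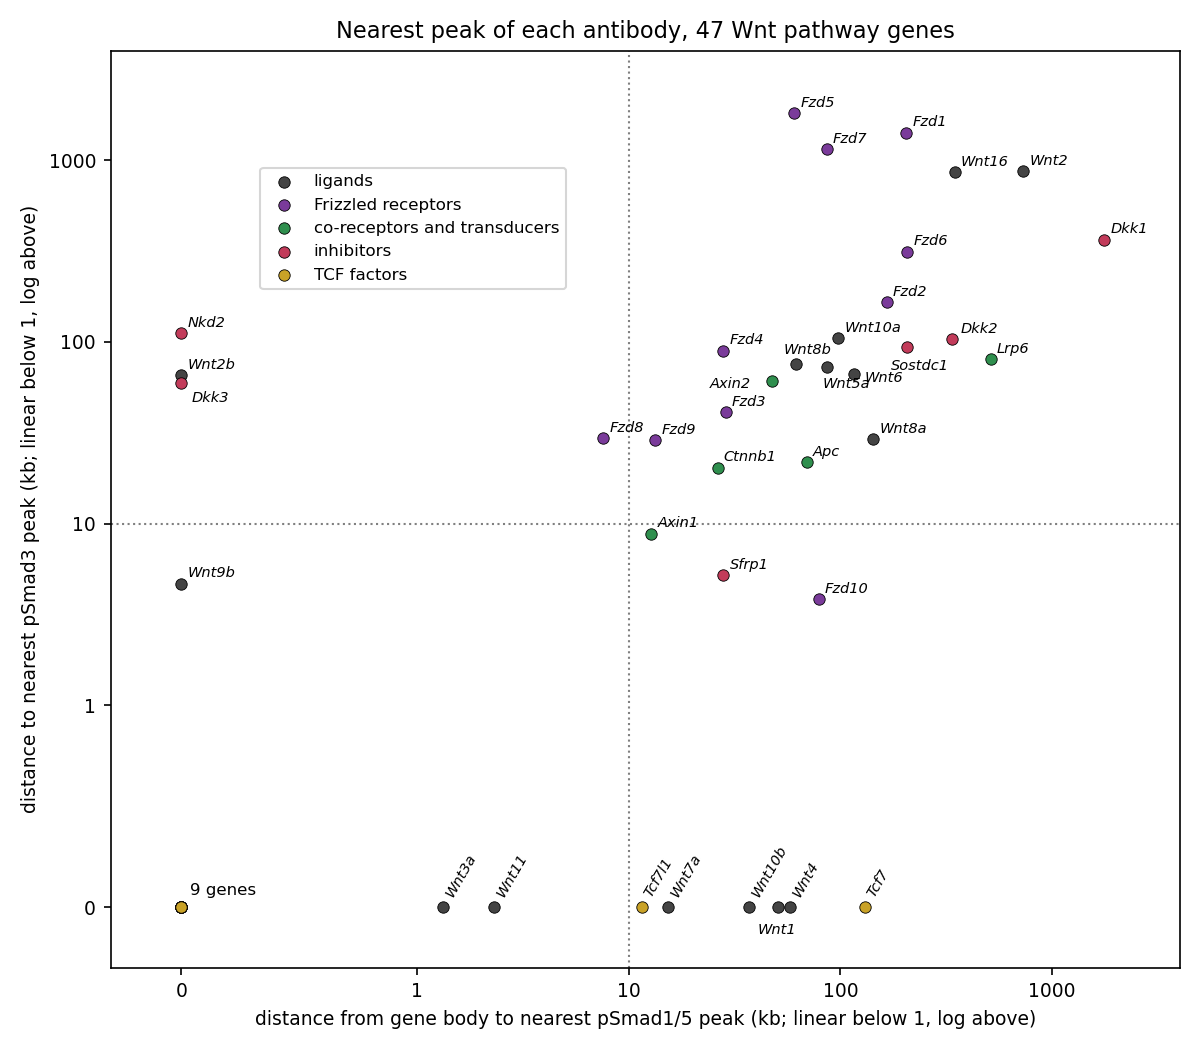
Distance in kb from each of the 47 gene bodies to the nearest pSmad1/5 peak (x axis) and pSmad3 peak (y axis), on axes that are linear below 1 kb and logarithmic above, coloured by class. Dotted lines mark 10 kb. A group of 9 genes lies at 0 for both, and 7 of the 8 Frizzled genes without a peak are beyond 40 kb from the nearest pSmad3 peak.

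The rest of the pathway was read from a list of 57 further genes. Of these, 23 had a pSmad1/5 peak (40.4%, 31.5% by locus length) and 17 a pSmad3 peak (29.8%, 28.1%). Peaks of both antibodies lay at 11 (19.3%, 17.2% by locus length). Those with both were Apc2, Bcl9l, Csnk1e, Ctnnbip1, Dkkl1, Gsk3a, Lgr6, Ror1, Ror2, Tnik and Wls. Ror2, a receptor of Wnt5a, had 5 pSmad3 peaks and 1 pSmad1/5 peak. By highest total signal the pSmad1/5 peaks of Wls (percentile 96.4), Dvl1 (85.6), Kremen2 (82.5), Celsr1 (75.8) and Apc2 (73.2) led. For pSmad3 they were Wls (97.9), Gsk3a (93.4), Tnik (91.2), Celsr3 (87.0) and Ctnnbip1 (80.6). Wls, the carrier that brings Wnt ligands to the cell surface, had maxima of 3414 and 1855 against list medians of 16 and 13, so both of its peaks dropped out when peaks over 2 times the median maximum were left out. Dvl1 encodes a Dishevelled protein that relays the signal from Frizzled, and Ctnnbip1 an inhibitor that keeps beta-catenin from TCF factors.

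The tissue label was set beside marker genes, for which the lists give peaks and not expression. Of 8 dental mesenchyme markers pSmad1/5 had a peak at 2 and pSmad3 at 0, where genes of their locus length would give 2.17 and 1.83. Of 7 dental epithelium markers the counts were 2 and 0 (1.89 and 1.71 by locus length), and of 4 endothelial markers 2 and 1 (1.28 and 1.18). Of 3 macrophage markers they were 1 and 1 (1.03 and 0.912), and of 3 nerve markers 1 and 1 (0.773 and 0.730). The peak counts at these markers therefore do not check the tissue label.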

How the data were processed

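CUT&RUN was done on molar tooth germs in 4 libraries, 2 per antibody. Per the submitters' processing notes, Bowtie2, SAMtools, bedtools, SEACR, deepTools and the build mm10 were used. For settings, versions, any control library and how the 2 libraries of an antibody were joined, nothing was given in the sources used here. The total and maximum signal of each peak are deposited coverage values in a scaling of the authors that is not stated, with the columns named per the labels. Lines sharing both values and the maximum region were taken as pieces of 1 call. Overlap with gene bodies plus 10 kb (RefSeq, GRCm38.p6, chromosomes 1 to 19 and X, genes starting within the first 3 Mb left out) was at least 1 bp, counted in Python 3.11.15 with pandas 2.3.3 and checked against planted overlaps. Starts and upstream sequences were listed in RefSeq for 17273 of 21519 protein-coding genes. A percentile is the share of peaks in the list with lower signal. Coordinates are 1-based. Sequence was read only in the RefSeq windows upstream of starts, some of which peaks cover, and other DNA under the peaks was not analysed here.

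All members are named. Positions are printed mainly for peaks at or near a start or with the highest percentiles, and other pathway genes are named if both antibodies had a peak or by highest percentile, up to 5 per antibody. Members and lists were chosen with earlier results of these data known. Alternatives covered the flank, the overlap rule, stronger peaks, high maxima, nearest gene and distinct calls.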

Additional observations from a re-analysis of the deposited data

How the results depend on the processing

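Of 46 alternative values for the main counts, 35 stayed within 1.5 times the reported one. With a flank of 50 kb, 26 members had a pSmad1/5 peak, 21 had both antibodies, and 27 of the other pathway genes had a pSmad3 peak. The shares over all protein-coding genes also rose, to 47.3% (pSmad1/5) and 42.4% (pSmad3). For both antibodies the share at this flank was not worked out. With the gene body alone, 10 of the 57 other pathway genes had a pSmad3 peak, where 16.8% of all protein-coding genes had one. With peaks at or above the median total signal, 9 members had a pSmad1/5 peak, 12 a pSmad3 peak and 5 both, from lists with fewer peaks. In that setting 11 of the other pathway genes had a pSmad1/5 peak. The shares over all protein-coding genes were then 14.4% (pSmad1/5) and 14.1% (pSmad3), and that for both antibodies was not worked out. With at least 50% of the shorter peak overlapping, 2 pSmad1/5 and 2 pSmad3 peaks in member loci were shared. With maximum regions within 1 kb of each other, 2 pSmad1/5 peaks were. The shares in all protein-coding loci under these overlap rules were not worked out. Of 80 alternative counts by class, 18 moved by more than 1.5 times. With each peak given only to its nearest protein-coding gene, 16 members had a pSmad1/5 peak, 19 a pSmad3 peak and 11 both. The share over all protein-coding genes under that rule was not worked out, so these counts stand without a comparison. Counting each call once, an alternative chosen after seeing the data, took the median percentile of total signal from 66.2 to 51.9 for pSmad1/5 and from 39.9 to 38.1 for pSmad3.

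No paired analysis was possible because each list is common to both libraries of an antibody and holds no value per library. Leaving out a library was not run for the same reason. Read depth is unknown.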

Other observations

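Start sites of the members lie in GC-rich DNA. The 250 bases upstream of their 37 listed starts (31 members) had a median GC content of 70.8%, against 55.6% over the starts of all protein-coding genes. GGCGCC was present in 13 of the 37 windows (35.1%), against 12.4% of all and 26.9% of windows of similar GC content (the same of 10 classes). For GGAGCC the shares were 45.9%, 29.6% and 44.4%, and for CAGAC 35.1%, 40.6% and 37.1%. For CTTTGAT they were 5.41% (only 2 of the 37 windows), 2.85% and 1.45%, and for CTTTGTT 8.11% (3 windows), 4.41% and 2.31%. The full palindrome GTCTAGAC was in none of the 37 windows and in 0.185% of all.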
